A study of Mus musculus with 23 samples.

Results

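The 10 genes described here belong to the branch of the cell's stress response that is run by the transcription factor ATF4 and that deals with amino acids: Atf4, Atf3, Ddit3, Trib3, Chac1, Asns, Phgdh, Psat1, Psph and Aars. They were taken as a list of names, and every probe set whose platform annotation names exactly 1 of them was used. This gave 19 of the 22626 probe sets of the array and 10 of the 12393 genes that have a probe set of their own. No filter on low values was applied, so all 19 were tested. A further 2 Phgdh probe sets, which also name a second gene, were left out.

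RNA was measured with 1 Affymetrix mouse expression array per muscle sample in *longissimus dorsi* (LD, a muscle along the spine) and tongue (TN) of male mice, labelled C57/BL6, that were 19–20 weeks old. BF mice were flown aboard the Bion-M1 satellite for 30 days and sampled 12–14 h after landing, so the return to ground is part of this condition. FC mice stayed in the animal facility, and BG mice lived for 30 days in the flight habitat on the ground. The 23 arrays are 5 BF LD, 5 FC LD, 5 BG LD, 3 BF TN, 2 FC TN and 3 BG TN; neither the labels nor the methods say whether LD and TN came from the same animals.

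ATF4 protein is made when kinases that sense missing amino acids, unfolded protein or other stress phosphorylate the translation factor eIF2: bulk protein synthesis slows, while the Atf4 message is translated better. ATF4 then pairs with other leucine zipper proteins of the C/EBP and AP-1 families and switches on genes for amino acid synthesis, uptake and tRNA charging, and, when stress lasts, genes such as Ddit3 and Trib3. Since the main control of ATF4 is on translation, its mRNA level, which is what an array measures, does not report its activity.

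All values are RMA expression values on the log2 scale, in which a difference of 1 is a factor of 2, and are compared within a probe set only, never between probe sets. A probe set passed when the adjusted p of the limma test, corrected over all probe sets, was under 0.05. Array medians lay between 6.42 and 6.61. As markers of the tissue, 12 muscle fibre genes (such as Acta1 and Ckm) averaged 13.99 to 14.1 in LD and 12.8 to 13.6 in TN. The mean of 12 measured oral epithelium genes (keratins and junction proteins) was 4.71 to 5.21 in LD and 11.3 to 11.8 in TN, so the tongue samples hold epithelium beside muscle. In such bulk tissue, fewer cells of a type and less RNA per cell cannot be told apart. Of the LD arrays, BG LD5 stood farthest from its group: it had the widest spread about its group mean (SD 0.36, against 0.15 to 0.25 on the other LD arrays) and the highest mean of 11 macrophage markers (9.66, against 6.84 to 8.37). Results that rest on it are given with and without it where both were computed.

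In LD of flown mice, 4 of the 10 genes changed against BG: Chac1 and Aars were higher, and Ddit3 and Psph were lower. The other 6 genes, among them Atf4 itself and the enzymes Asns, Psat1 and Phgdh, did not pass. Counted by probe set, 5 of 19 passed, 3 higher and 2 lower, where 10.2% of all probe sets on the array passed, 6.41% higher and 3.83% lower. The 5 BF arrays did not overlap with the 5 BG arrays in 2 member probe sets that were higher and 1 that was lower, beside 4.27% and 2.71% of all probe sets. Only Chac1 also changed by more than 2-fold, as 0.424% of all probe sets did. The median change of the 19 probe sets was 0.08, and that of all probe sets was -0.03. The plot of all member changes with their intervals shows the 3 comparisons of LD side by side.

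**Figure D1:**
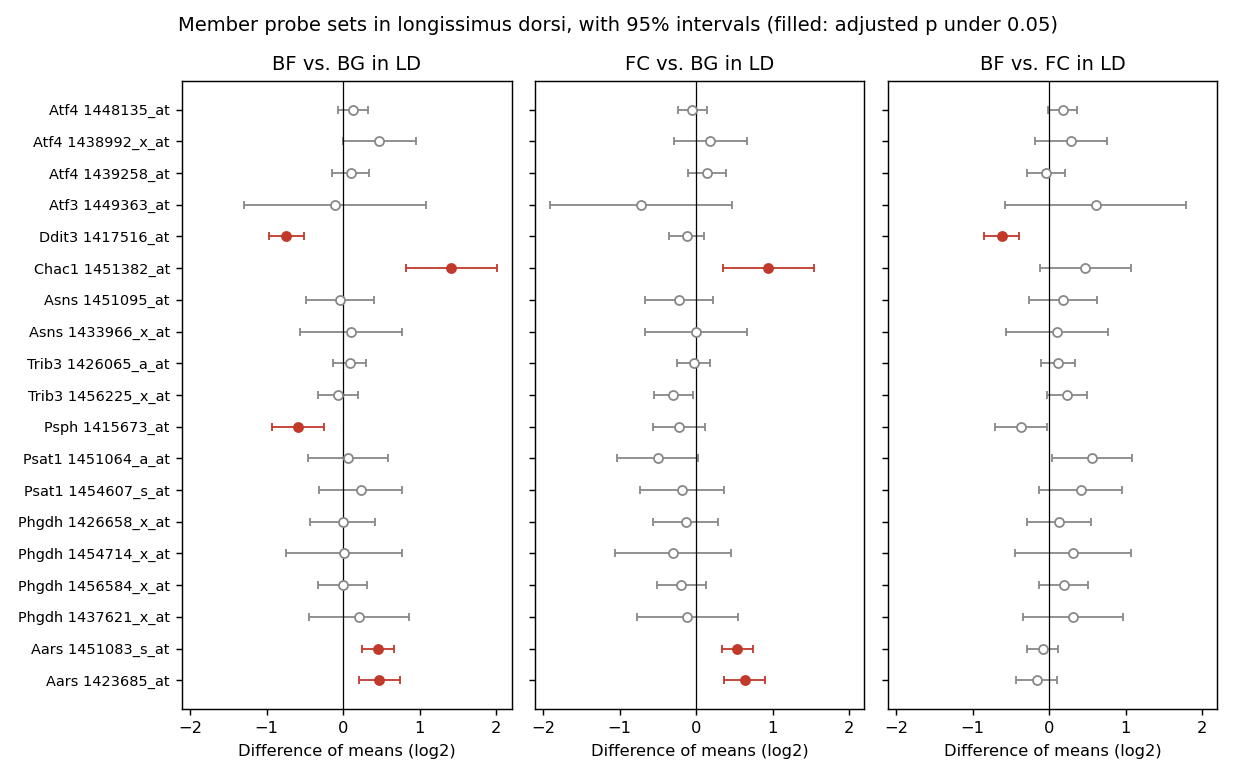
Differences of group means (log2, x axis) for the 19 member probe sets (rows) in *longissimus dorsi* for the 3 housing comparisons. Points are the fitted differences, bars are 95% intervals and filled points passed at an adjusted p under 0.05, which were 5 for BF with BG, 3 for FC with BG and 1 (Ddit3) for BF with FC.

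Ddit3 (CHOP), the transcription factor that ATF4 switches on in lasting stress and that can lead to cell death, was the member with the smallest adjusted p in BF vs. BG. Its value was 7.38, 7.64, 7.27, 7.34 and 7.58 in BF LD, against 7.97, 7.72, 8.28, 8.10 and 8.23 in FC LD and 8.16, 8.0, 8.25, 8.0 and 8.49 in BG LD. Every flown mouse lay below every mouse of both ground groups, while the 2 ground groups overlapped. BF vs. BG was -0.74 (SE 0.11, adjusted p = 0.000280), which is 0.598 of the BG level. BF vs. FC was -0.62 (SE 0.11, adjusted p = 0.00264), and FC vs. BG was -0.12 (95% interval -0.35 to 0.11, adjusted p = 0.537). Both flown comparisons passed under all 34 other settings tried. In TN, Ddit3 was 7.94 to 8.13 in BF, 7.94 to 8.08 in FC and 7.99 to 8.03 in BG, and BF vs. BG was -0.01 (95% interval -0.30 to 0.29). Set against each other, the BF vs. BG changes of LD minus TN gave -0.73 (SE 0.18) with an unadjusted p of 0.000497 and an adjusted p of 0.0937, so it did not pass. It passed without BG LD5 (-0.66, adjusted p = 0.0491) and with arrays weighted by their quality (-0.64, adjusted p = 0.0267). Those were the only settings in which it passed, among 23 fits without 1 array and 10 other settings.

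Chac1, an enzyme that splits the antioxidant glutathione and a well-known ATF4 target, had the largest change of the members in LD. It was 11.11, 10.66, 11.35, 11.16 and 11.58 in BF LD, 11.57, 10.89, 10.78, 10.01 and 10.24 in FC LD, and 9.82, 10.14, 9.94, 10.46 and 8.44 in BG LD. All BF arrays lay above all BG arrays, the FC arrays overlapped with both, and BG LD5 was the lowest of the 15. That array also had the highest macrophage marker mean. Over the 15 arrays Chac1 had an r of -0.52 with that mean (adjusted permutation p = 0.470) and a Spearman rho of -0.10. The r was -0.004 without the 2 arrays farthest from the median of that mean, and -0.36 with group means taken out. The part of these cells in the Chac1 values was not tested. BF vs. BG was 1.41 (SE 0.29, 2.66-fold, adjusted p = 0.00356), and without BG LD5 it was 1.08 (adjusted p = 0.00231). Chac1 is among the genes that the study picked for this contrast on these samples, so its change is no independent evidence. FC vs. BG was 0.94 (SE 0.29, adjusted p = 0.0432), a call that was kept under 15 of 34 other settings and was lost without BG LD5 (0.61, adjusted p = 0.0668). BF vs. FC was 0.47 (95% interval -0.13 to 1.07, adjusted p = 0.464). In TN, Chac1 was 9.20 to 9.47 in BF, 9.78 and 9.79 in FC, and 8.99 to 9.09 in BG. There FC vs. BG was 0.72 (adjusted p = 0.318) between groups that did not overlap. It passed with TN fitted alone (adjusted p = 0.00902) and in no other setting tried. BF vs. BG in TN was 0.27 (95% interval -0.49 to 1.04).

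Aars, the enzyme that charges the alanine tRNA, was higher in both BF and FC than in BG, a group that both comparisons share. Its brighter probe set was 9.81, 9.61, 10.02, 10.02 and 9.75 in BF LD, 9.86, 9.80, 10.12, 9.78 and 10.08 in FC LD, and 9.33, 9.44, 9.46, 9.25 and 9.46 in BG LD. BG lay below all arrays of the other groups. BF vs. BG was 0.45 (SE 0.10, adjusted p = 0.00603) and FC vs. BG was 0.54 (SE 0.10, adjusted p = 0.00333), and both passed under all 34 other settings. The second probe set gave 0.47 (SE 0.13, adjusted p = 0.0220) for BF vs. BG and 0.63 (SE 0.13, adjusted p = 0.00494) for FC vs. BG. The first of these did not pass without BF LD3, BF LD4 or BG LD4, with an adjusted p of up to 0.0705. BF vs. FC was -0.08 (95% interval -0.29 to 0.12) in the brighter probe set. In TN, the brighter probe set was 8.76 to 9.20 in BF, 9.06 and 9.09 in FC, and 8.69 to 8.91 in BG, and none of the comparisons passed (adjusted p of 0.269 and above).

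**Figure D2:**
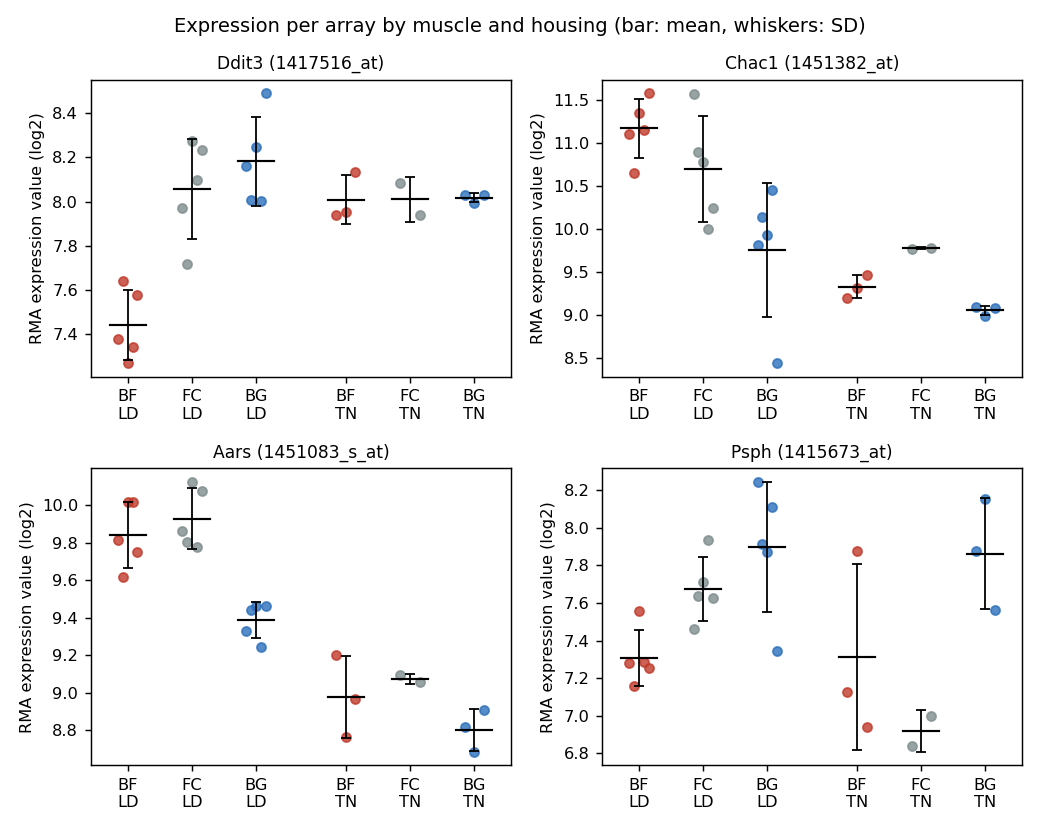
Expression values (log2, y axis) of Ddit3, Chac1, Aars and Psph on each of the 23 arrays, by muscle and housing (x axis). Points are arrays, the line is the group mean and whiskers are the SD; the 5 BF LD arrays of Ddit3 lie below 7.65, under all FC LD and BG LD arrays.

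Psph, the phosphatase that makes the last step of serine synthesis, was the second member that was lower in flown mice. It was 7.28, 7.16, 7.56, 7.28 and 7.26 in BF LD, 7.46, 7.64, 7.71, 7.93 and 7.63 in FC LD, and 8.24, 7.91, 7.87, 8.11 and 7.34 in BG LD. The groups overlapped through BG LD5, which lay among the BF arrays. BF vs. BG was -0.59 (SE 0.17, adjusted p = 0.0270), and without BG LD5 it was -0.73 (adjusted p = 0.00270). The call was lost on leaving out any 1 of BF LD2, BF LD4, BF LD5, BG LD1, BG LD2 or BG LD4, with an adjusted p of up to 0.0882. FC vs. BG was -0.22 (adjusted p = 0.441) and BF vs. FC was -0.37 (adjusted p = 0.276).

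In FC vs. BG of LD, 3 of 19 probe sets passed, all of them higher (Chac1 and both of Aars), beside 8.95% of all probe sets in either direction and 6.79% higher. The arrays of the 2 groups did not overlap in 2 member probe sets, both of Aars, beside 4.19% of all probe sets. In BF vs. FC, Ddit3 alone passed, 1 of 19, beside 3.66% of all probe sets in either direction and 1.6% lower; 2.78% of all probe sets were lower without overlap, and Ddit3 was 1 of them. At an unadjusted p under 0.05 there were 5 member probe sets in BF vs. BG, 4 in the comparison of FC with BG and 3 in that of BF with FC. The share of all probe sets at that level was not counted, so these numbers are no result about the members. The median change of the members was -0.12 in the second of these and 0.18 in the third, and that of all probe sets was -0.01 and -0.03.

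Atf4 is measured by 3 probe sets that followed each other unevenly: over all 23 arrays the Pearson r between pairs of them ran from 0.07 to 0.84. The brightest was 11.70, 11.81, 11.75, 11.89 and 11.68 in BF LD, 11.44, 11.57, 11.55, 11.62 and 11.77 in FC LD, and 11.91, 11.58, 11.62, 11.43 and 11.64 in BG LD. The 3 groups overlapped. BF vs. BG was 0.13 (95% interval -0.06 to 0.32, adjusted p = 0.421) and BF vs. FC was 0.18 (95% interval -0.02 to 0.37, adjusted p = 0.370). The second was 8.87, 9.29, 9.45, 9.71 and 9.40 in BF LD, against 8.76, 8.53, 8.26, 8.95 and 9.84 in BG LD. In it BG LD5 was the highest of the LD arrays and the other 4 BG arrays lay at or below 8.95. BF vs. BG was 0.47 (95% interval -0.00199 to 0.95, adjusted p = 0.203) with all arrays, passed without BG LD5 (0.72, adjusted p = 0.0125) and passed with weighted arrays (0.76, adjusted p = 0.00351). It passed in no other setting tried. The third, a dim one, lay between 3.98 and 5.24 on all arrays and differed by 0.10 in BF vs. BG (95% interval -0.15 to 0.34).

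Atf3, a transcription factor of the same family that many acute stresses switch on within hours, had the largest SD of the members in BF LD and FC LD. It was 6.70, 8.98, 6.72, 9.13 and 9.72 in BF LD, 6.57, 7.01, 6.85, 8.85 and 8.94 in FC LD, and 9.53, 7.76, 8.02, 7.78 and 8.72 in BG LD. In BF and FC, arrays near 7 stood beside arrays near 9, a step of about 2 on the log2 scale within 1 housing condition. The SD was 1.43 in BF, 1.15 in FC and 0.76 in BG, and BF vs. BG was -0.11 with a 95% interval of -1.30 to 1.08. With 5 arrays per group, this interval holds a 2-fold change of Atf3 in either direction, so a change of that size may have been missed.

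Trib3, a pseudokinase that ATF4 and CHOP switch on and that restrains the kinase AKT, differed little. Its brighter probe set lay at 6.77 to 7.06 in BF LD, 6.41 to 7.15 in FC LD and 6.78 to 6.91 in BG LD, and BF vs. BG was 0.08 (95% interval -0.14 to 0.30). The other gave -0.06 for BF vs. BG and -0.30 for FC vs. BG (adjusted p = 0.144).

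Phgdh and Psat1 make the first steps of serine synthesis ahead of Psph, and Asns makes asparagine; all are enzymes that ATF4 switches on when amino acids run short. None of their 8 probe sets passed in any housing comparison of LD, and BF LD1 and FC LD1 were the highest arrays of their groups in the brightest probe set of each enzyme. The brightest of the 4 Phgdh probe sets was 9.25, 8.36, 7.84, 8.0 and 8.38 in BF LD, 8.87, 8.15, 7.76, 8.02 and 8.37 in FC LD, and 8.35, 8.40, 8.55, 8.18 and 8.37 in BG LD. The highest array of each of BF and FC was number 1, and BF LD1 and FC LD1 were also the 2 arrays with the highest mean of 6 measured adipocyte markers (10.29 and 9.54, against 7.65 to 9.12 on the other LD arrays). Those markers were Adipoq, Lep, Cidec, Retn, Ucp1 and Car3, of which Car3 is made by muscle fibres too. The brighter Asns probe set was 7.93 on BF LD1 and 6.58 to 7.09 on the other BF arrays, 6.44 to 7.41 in FC LD with FC LD1 the highest, and 6.76 to 7.42 in BG LD. The brighter Psat1 probe set was 7.42 on BF LD1 and 6.12 to 6.74 on the other BF arrays, 5.57 to 6.74 in FC LD with FC LD1 the highest, and 5.89 to 7.36 in BG LD with BG LD5 the highest.

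Across the 15 LD arrays, the brightest probe set of each of the 10 members was set against the mean of 5 marker lists (adipocyte, macrophage, fibroblast, endothelium, and Schwann cell and nerve), which makes 50 relations. With the adipocyte mean, Phgdh had a Pearson r of 0.90 (permutation p = 1e-05, the smallest these permutations can give, adjusted p = 0.0005) and a Spearman rho of 0.92 (permutation p = 1e-05, adjusted p = 0.0005). Asns had an r of 0.85 (permutation p = 4e-05, adjusted p = 0.001) and a rho of 0.79 (permutation p = 0.00071, adjusted p = 0.0178). Psat1 had an r of 0.76 (permutation p = 0.00089, adjusted p = 0.0148) and a rho of 0.75 (permutation p = 0.00187, adjusted p = 0.0312). Without the 2 arrays farthest from the median of the marker mean, r was 0.93 for Phgdh, 0.68 for Asns and 0.57 for Psat1. With the group means taken out, r was 0.91, 0.84 and 0.74 in that order (permutation within groups, adjusted p of 0.03, 0.03 and 0.0328). Psat1 was also related to the macrophage mean (r = 0.74, permutation p = 0.00131, adjusted p = 0.0164; rho = 0.65, permutation p = 0.01, adjusted p = 0.126), and that r was 0.48 without the 2 farthest arrays and 0.80 with group means taken out (permutation within groups, adjusted p = 0.03). No other of the 50 relations passed by r. For the members that changed, r with the adipocyte mean was -0.01 for Ddit3, 0.01 for Chac1, -0.18 for Aars and -0.35 for Psph, each with an adjusted permutation p of 0.749 or above. With the group means taken out, r was 0.27, 0.02, -0.14 and -0.44 in that order (permutation within groups, adjusted p of 0.25 or above).

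**Figure D3:**
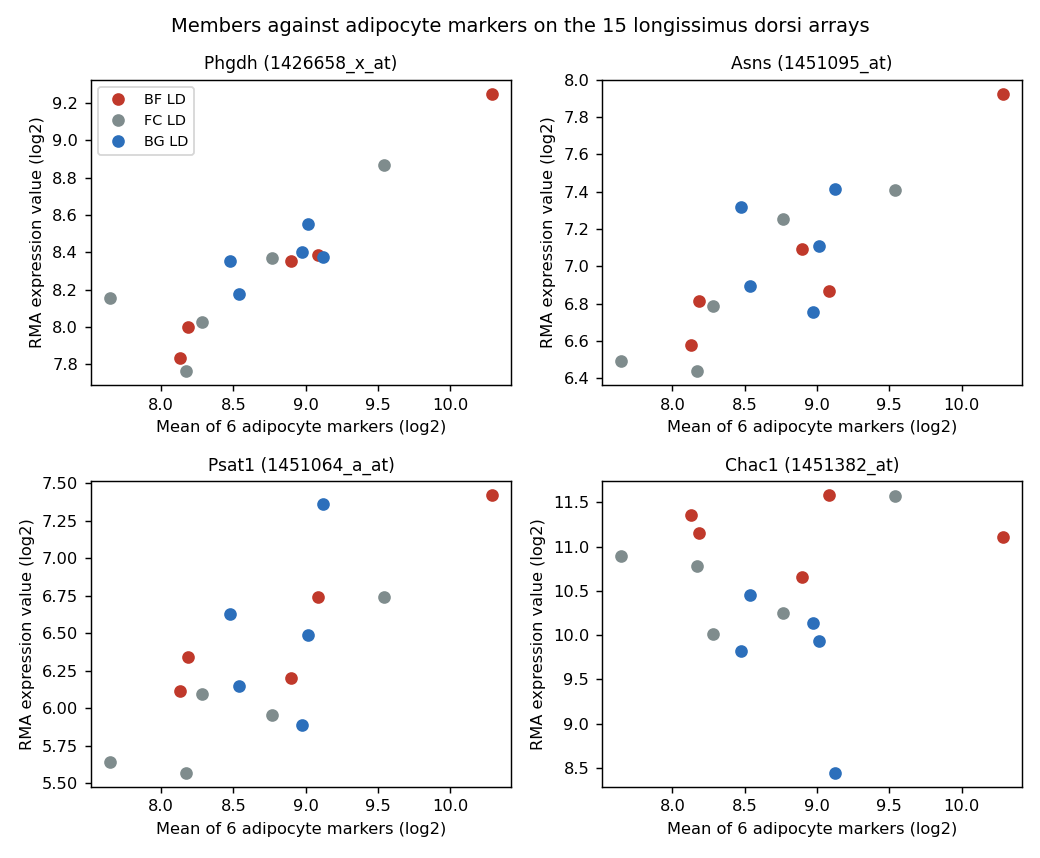
Expression values (log2, y axis) of Phgdh, Asns, Psat1 and Chac1 against the mean of 6 adipocyte markers (log2, x axis) on the 15 *longissimus dorsi* arrays, coloured by housing. Phgdh, Asns and Psat1 rise with the marker mean (r of 0.90, 0.85 and 0.76), and Chac1 does not (r of 0.01).

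The adipocyte marker mean overlapped between groups (8.13 to 10.29 in BF LD, 7.65 to 9.54 in FC LD and 8.48 to 9.12 in BG LD). With it as a covariate, BF vs. BG in LD had the same number of member calls, 5, and Chac1 was 1.41 (adjusted p = 0.00520), Ddit3 -0.75 (adjusted p = 0.000391) and the brightest Phgdh probe set -0.06 (adjusted p = 0.808). Without BF LD1 and FC LD1, Phgdh was -0.23 (adjusted p = 0.313) in BF vs. BG, Chac1 was 1.43 (adjusted p = 0.00383) and Ddit3 was -0.72 (adjusted p = 0.00117). The brighter Psat1 probe set then passed in FC vs. BG at -0.69 (adjusted p = 0.0447), where it was -0.50 (adjusted p = 0.228) with all arrays. Both settings were chosen after the data were seen.

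In TN few members passed, on 2 or 3 arrays per group. No member probe set of 19 passed in BF vs. BG, beside 0.826% of all probe sets, and none in BF vs. FC, beside 2.24%. At an unadjusted p under 0.05 there were 2 and 0, a level at which the share of all probe sets was not counted. The median size of the 19 changes was 0.23 in BF vs. BG and 0.27 in FC vs. BG, beside 0.15 and 0.18 over all probe sets. Groups without overlap are common at these numbers: in BF vs. BG 1 member probe set was higher and 4 were lower without overlap (9.69% and 8.84% of all probe sets), in FC vs. BG 3 and 8 (24.4% and 20.4%), and with BF set against FC 4 and 5 (17.6% and 20.2%). In FC vs. BG, 1 of 19 passed, beside 9.45% of all probe sets. That was Psph, at 6.84 and 7.0 in FC TN and 7.88, 8.15 and 7.56 in BG TN, a difference of -0.94 (SE 0.24, adjusted p = 0.0167) between groups that did not overlap. Without BG TN2, FC TN1 or FC TN2 in turn it did not pass, with an adjusted p of up to 0.195 (without an FC TN array, the 1 that is left is assumed to vary like the other groups), nor with the adipocyte marker mean as a covariate. Psph in BF TN was 7.12, 7.88 and 6.94, and BF vs. BG was -0.55 (SE 0.21, adjusted p = 0.212). It was -0.83 (adjusted p = 0.0233) without BF TN2 and passed, as it did with weighted arrays (-0.67, adjusted p = 0.0193) and in no other setting tried. The change in LD minus that in TN was -0.04 (95% interval -0.60 to 0.52). Over the 19 probe sets, none passed in that test of the muscles' difference in BF vs. BG, beside 0.172% of all probe sets. At an unadjusted p under 0.05, where the share of all probe sets was not counted, there were 4. Besides Ddit3 these were Chac1 (1.14, SE 0.47, adjusted p = 0.330), the second Atf4 probe set (0.97, SE 0.37, adjusted p = 0.296) and the brighter Trib3 probe set (0.39, SE 0.17, adjusted p = 0.377). The second Atf4 probe set passed it without BG LD5 (1.21, adjusted p = 0.0431) and with weighted arrays (1.33, adjusted p = 0.0143), and in no other setting tried.

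More member probe sets passed between the muscles than between housing conditions. In LD vs. TN, 15 of 19 probe sets passed in BF, 13 in FC and 13 in BG, where 45.8%, 46.8% and 54.1% of all probe sets did. More than 2-fold apart were 7, 6 and 6 member probe sets in BF, FC and BG, beside 13.5%, 15.6% and 13.1% of all. Psat1 and Asns, in both probe sets of each, and 2 of the 4 Phgdh probe sets were more than 2-fold lower in LD in all 3 housing groups. The brighter Psat1 probe set was 6.56 ± 0.54 in LD and 9.35 ± 0.11 in TN of BF mice (SD, n = 5 and 3), and LD vs. TN was -2.78 in BF, -3.09 in FC and -3.30 in BG (adjusted p of 8.62e-08 and below). The brighter Asns probe set differed by -1.79, -1.61 and -1.84 in BF, FC and BG (adjusted p of 6.59e-05 and below). The highest LD array of either enzyme lay below its lowest TN array.

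The 4 Phgdh probe sets were all lower in LD but differed in size. In BF, LD vs. TN was -0.69, -2.12, -0.59 and -1.84, from the brightest of them to the dimmest. The second and the dimmest also differed by -2.77 and -2.31 in FC and by -2.49 and -2.49 in BG, while the other pair ranged from -0.86 to -0.48 in these groups, of which the brightest in FC did not pass (adjusted p = 0.149). In the second, LD arrays ran from 6.25 to 9.15 and TN arrays from 9.59 to 10.31. The identifiers of all 4 end in _x_at, as do those of the second Atf4, Asns and Trib3 probe sets. Whether the probes of these sets also bind other transcripts was not tested.

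Among the other members, Atf4 and Aars were higher in LD and 1 of the 2 Trib3 probe sets was lower, while Ddit3, Chac1 and Psph each passed in 1 housing group and Atf3 in none. The brightest Atf4 probe set was higher in LD by 0.86 in BF, 0.96 in FC and 0.75 in BG (adjusted p of 4.10e-06 and below), with every LD array at 11.43 or above and every TN array at 11.08 or below. The third Atf4 probe set passed in the same direction in all 3 housing groups, and the second passed in none (0.60, -0.21 and -0.37 in BF, FC and BG); without BG LD5 it passed in opposite directions in BF (0.60, adjusted p = 0.0204) and BG (-0.61, adjusted p = 0.0200). The brighter Aars probe set was higher in LD by 0.87 in BF, 0.85 in FC and 0.58 in BG (adjusted p of 0.000215 and below). Chac1 was higher in LD by 1.84 in BF (SE 0.33, adjusted p = 7.73e-05), by 0.92 in FC (adjusted p = 0.0515) and by 0.70 in BG (adjusted p = 0.0774), of which only the value in BF passed. Without BG LD5 the differences in FC and BG passed too (0.92, adjusted p = 0.00956, and 1.03, adjusted p = 0.00186). Ddit3 was lower in LD than in TN in BF (-0.57, SE 0.13, adjusted p = 0.000772), and differed by 0.05 in FC and 0.17 in BG (adjusted p of 0.809 and 0.274). The brighter Trib3 probe set was lower in LD in BF, FC and BG (-0.30, -0.50 and -0.69), and the call in BF (adjusted p = 0.0475) was lost in 17 of 31 other settings. With all arrays the dimmer Trib3 probe set passed in no housing group (-0.12, -0.16 and -0.24 in BF, FC and BG). Psph passed in FC (0.76, adjusted p = 0.00698, lost without FC TN1) and was -0.01 in BF and 0.03 in BG, where it did not pass. Oral epithelium markers, at 4.71 to 5.21 in LD and 11.3 to 11.8 in TN, differ between the muscles in each of these comparisons. Their part in the member values was not tested. Adipocyte markers were at 7.65 to 10.29 in LD and 4.62 to 7.12 in TN, and their part in these differences was not tested either.

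**Figure D4:**
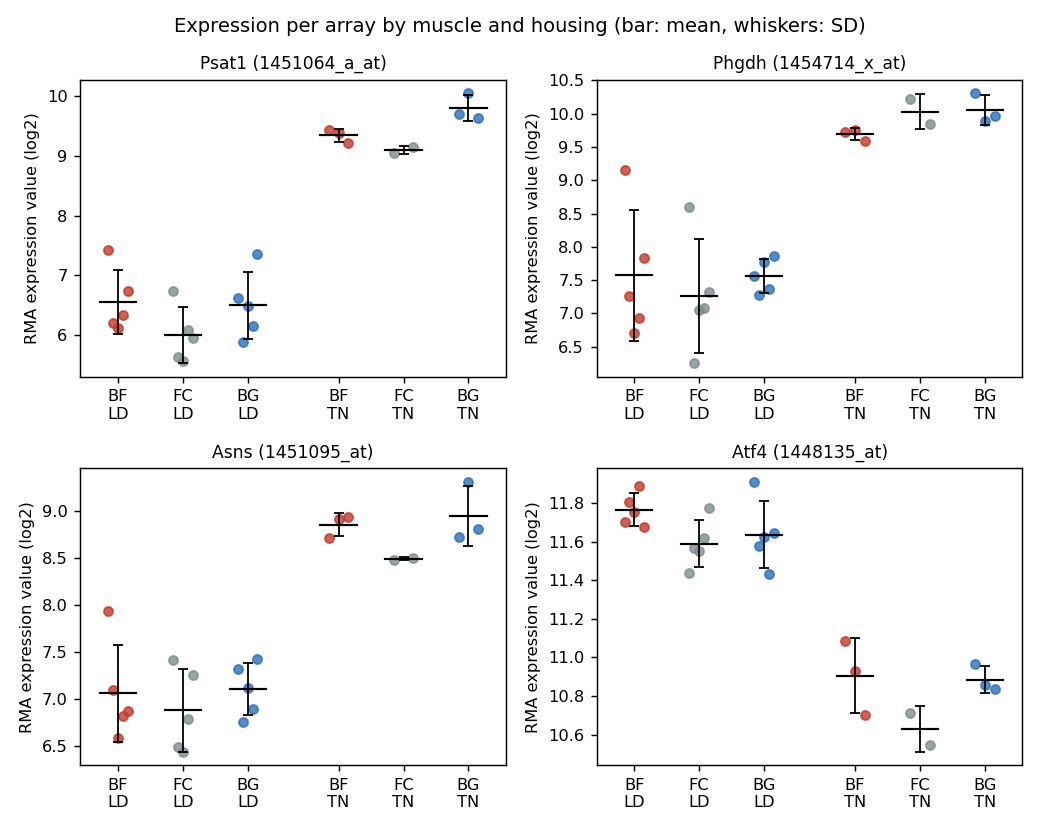
Expression values (log2, y axis) of Psat1, Phgdh, Asns and Atf4 on each of the 23 arrays, by muscle and housing (x axis). Points are arrays, the line is the group mean and whiskers are the SD; the probe sets plotted are the brightest of Psat1, Asns and Atf4 and the second brightest of Phgdh, and in these LD and TN arrays do not overlap, which does not hold for the brightest Phgdh probe set or the second of Atf4.

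ATF4 works on DNA through the C/EBP-ATF response element, a composite of half-sites for the 2 kinds of partner, and the letters TGATGNAAN were searched on both strands of the RefSeq promoters of GRCm38.p6, stretches of 300 bases that lie mostly ahead of the start site and run a little past it. Of 32851 promoters, 1299 (3.95%) held them. All 10 members have a promoter in that table, and 5 of the 10 genes held a match, among them Chac1, Atf3 and Asns. The cAMP response element TGACGTCA was found in 1.79% of promoters and in 0 of the 10 members, so no match of the 2 motifs overlaps there. For Chac1, Atf3 and Asns, the matches, which lie ahead of the start site, are shown on the strand of the gene, to show the letters matched; no relation between matches and changes was tested. Capitals mark the 9 matched letters.
Chac1: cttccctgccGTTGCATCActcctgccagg
Atf3: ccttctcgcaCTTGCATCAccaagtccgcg
Asns: cccagccacaTGATGAAACttcccgcacgc
The Chac1 stretch is chr2:119351038-119351067 (plus strand), with the match starting 194 bases ahead of the start site. Atf3 is at chr1:191183425-191183454 (minus strand, 111 bases ahead) and Asns at chr6:7693213-7693242 (minus strand, 23 bases ahead). In Chac1 and Atf3 the element runs on the opposite strand. A match is a description of the letters and not a bound site.

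The wider pathway was followed in 6 lists with 82 measured genes, 1 probe set per gene. In LD, BF vs. BG, 21 of 82 passed, 14 higher and 7 lower, and over all 12393 genes 6.06% were higher and 4.48% lower. Of 15 partners and other stress-induced targets of ATF4, 6 were higher and 1 was lower, with a median change of 0.30 beside -0.04 over all genes. Those with the smallest adjusted p were Gadd45a, a growth arrest gene (0.95, SE 0.13, adjusted p = 0.000157), Cebpb, a binding partner of ATF4 (0.77, SE 0.13, adjusted p = 0.000797), Eif4ebp1, which holds back cap-dependent translation (0.83, SE 0.18, adjusted p = 0.00513), and Sqstm1, an autophagy receptor (0.53, SE 0.13, adjusted p = 0.0145). Nupr1, named after its value was seen, was the one that was lower (-0.65, SE 0.17, adjusted p = 0.0205). Cebpb and Eif4ebp1 are among the genes the study picked for this contrast, as are Slc7a2 and Manf below. The probe sets that the study listed for Cebpb, Eif4ebp1 and Slc7a2 changed by more than 2-fold. The values here are of the brightest probe set of each gene and are smaller for these genes.

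The list of other endoplasmic reticulum stress targets, mostly chaperones under ATF6 and XBP1, went the opposite way: 6 of 12 were lower and 1 higher, with a median change of -0.40. Without BG LD5 it was 5 lower and 1 higher, with a median of -0.29. The whole list of macrophage markers lay below 0 too: all 11 did in BF vs. BG (median -0.69, none passed), and without BG LD5 8 of 11 did (median -0.32). Of the fibroblast markers all 7 were below 0 (median -0.33, 1 passed), and 6 of 7 without BG LD5 (median -0.09). The macrophage mean was 6.84 to 8.37 in BF LD and 7.57 to 9.66 in BG LD, that of the fibroblast markers 9.0 to 10.7 in BF LD and 9.94 to 10.9 in BG LD, and the part of these cells in the list's values was not tested. Manf, a secreted survival factor of the stressed reticulum, was -1.16 (SE 0.16, adjusted p = 0.000165). Hspa5 (BiP), its main chaperone, was -0.73 (SE 0.12, adjusted p = 0.000854), Creld2 was -0.73 (SE 0.15, adjusted p = 0.00299) and the disulfide isomerase Pdia4 was -0.57 (SE 0.11, adjusted p = 0.00301). Dnajb9, named after its value was seen, was the one that was higher (0.39, adjusted p = 0.0408).

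Of 13 other amino acid and 1-carbon enzymes, Gpt2 (alanine aminotransferase, 0.92, adjusted p = 0.00425) and Glul (glutamine synthetase, 0.81, adjusted p = 0.0119) were higher in BF than in BG. Of 11 amino acid transporters, Slc7a2, a carrier of cationic amino acids, was higher (0.91, adjusted p = 0.0119); without BG LD5, 4 were higher and 1 was lower. Of 17 other tRNA synthetases, Iars (0.44, adjusted p = 0.0166) and Farsa (0.42, adjusted p = 0.0384) were higher. Of 14 genes of eIF2 and its control, Ppp1r15b, which guides the phosphatase that undoes eIF2 phosphorylation (0.47, adjusted p = 0.00385), and Eif2ak4 (GCN2, the kinase that senses uncharged tRNA, 0.33, adjusted p = 0.0379) were higher. With all arrays, none of these 4 lists had a gene that was lower.

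FC vs. BG, which shares the BG arrays, had 12 of 82 listed genes past the threshold, 8 higher and 4 lower, beside 8.07% and 2.19% of all genes. All 4 that were lower were reticulum targets: Manf was -0.78 (adjusted p = 0.00636), Hspa5 -0.46 (adjusted p = 0.0247), Pdia4 -0.41 (adjusted p = 0.0264) and Hsp90b1 -0.58 (adjusted p = 0.0385). Without BG LD5, 3 of the 12 genes of the reticulum list were lower. In that setting 1 of the 11 amino acid transporters was lower too and 2 were higher. Macrophage markers were below 0 here too, 11 of 11 (median -0.66, 1 passed), and 9 of 11 without BG LD5 (median -0.21). Of the ATF4 partners Jdp2 (0.58, adjusted p = 0.0100), Cebpg (0.33, adjusted p = 0.0120) and Cebpb (0.45, adjusted p = 0.0331) were higher. In BF vs. FC, 4 of 82 passed, 3 higher and 1 lower, beside 1.24% and 1.84% of all genes: Gadd45a (0.78, adjusted p = 0.00171), Eif4ebp1 (0.70, adjusted p = 0.0275) and the amino acid sensor Sesn2 (0.37, adjusted p = 0.0403) were higher, and Creld2 was lower (-0.55, adjusted p = 0.0334). In TN, 1 of 82 passed in BF vs. BG, 5 when FC was set against BG and 1 when BF was set against FC, beside 0.831%, 9.9% and 1.4% of all genes. No listed gene passed in the test of the muscles' difference in BF vs. BG.

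Over the 15 LD arrays, the genes outside the list whose values followed Chac1 most closely were Fetub (r = 0.91), Klhdc3 (0.89), Slc66a1 (0.85), Tbc1d1 (0.83) and Syncrip (0.83). The points share the housing groups, and with group means taken out these r were 0.82, 0.78, 0.69, 0.59 and 0.59. BG LD5 had the lowest Chac1 value of the 15, and r without it was not computed. This set and that of Atf4 below are the highest r found among the 20380 probe sets naming 1 gene, members apart. No p was computed for them. Tbc1d1, which controls traffic of the glucose transporter, was 1.27 higher in BF LD than in BG LD (adjusted p = 0.000351). Tbc1d1 and Syncrip are among the genes that the study picked for this contrast on these samples, so their changes are no independent evidence. The genes closest to the brightest Atf4 probe set were Arntl (r = 0.92), Crebzf (0.81), Utp11 (0.78), Pmm1 (0.77) and Galnt7 (0.77). Arntl, also called Bmal1, is a core gene of the circadian clock, and its r with group means taken out was 0.89. It differed by 0.52 in BF vs. BG in LD (adjusted p = 0.218).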

How the data were processed

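The authors made the deposited log2 values from the scanned arrays with RMA (background correction, quantile normalization, median polish) in Partek Genomics Suite 6.6; the scanned signals were not used, and the number of arrays limits the precision. The methods do not say whether the 2 muscles were normalized together. Quantile normalization over both would set 1 distribution for samples of different make-up, and differences between LD and TN would be relative to it. Groups came from the sample labels. All 22626 probe sets were fitted in 1 model of 6 groups on 23 arrays (limma 3.58.1, R 4.3.3, lmFit and eBayes, 17 residual degrees of freedom), with Benjamini-Hochberg adjustment per comparison, after a test on simulated data. Correlations used 100000 permutations (numpy 2.4.6, Python 3.11.15). Named were all members with every probe set, up to 4 genes of smallest adjusted p per pathway list, and the 5 genes of highest r with Chac1 and with Atf4. The members and lists were chosen with earlier results of these data known. Gene symbols are those of the platform annotation. The p-values measure the spread between samples, pooled over the 6 groups. Alternatives were 23 fits without 1 array, 9 other settings and 2 added after the data were seen. Further promoter matches of members are not reported here. By the rule that every same-numbered pair correlate over 0.1 in its deviations from the group means, the numbers paired BF TN with BG TN (r 0.17 to 0.38, 3 pairs), and no other groups; no label gives such a pairing.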

Additional observations from a re-analysis of the deposited data

Results flagged for a closer look

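Of 57 groups of 5 LD arrays (19 probe sets in 3 housing groups), 1 had an array far from the others; chance alone marks about 1 in 20. The dimmer Psat1 probe set was 5.97 on BG LD5 and 4.44 to 4.53 on the other 4 BG LD arrays. In the brighter Psat1 probe set the same array was also the highest of its group, at 7.36 against 5.89 to 6.63. BF vs. BG of the dimmer one was 0.23 (limma, adjusted p = 0.641) with all arrays. Without BG LD5 it was 0.53 (adjusted p = 0.0834). The brighter one gave 0.06 (adjusted p = 0.914) and, without BG LD5, 0.28 (adjusted p = 0.457), so neither passed.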

How the results depend on the processing

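On leaving out 1 array at a time, member calls in LD ranged from 3 to 6 in BF vs. BG (3 without BF LD4 or BG LD4), from 2 to 3 in FC vs. BG and stayed at 1 in BF vs. FC; in TN they ranged from 0 to 1 in BF vs. BG (1 without BF TN2) and in FC vs. BG and stayed at 0 in BF vs. FC. They ranged from 0 to 2 in the muscles' difference in BF vs. BG, and from 12 to 16, 11 to 14 and 12 to 15 in LD vs. TN of BF, FC and BG. Array weights gave 1 call in BF vs. BG of TN (Psph, -0.67), 3 in FC vs. BG of TN and 2 in the muscles' difference. FC vs. BG of TN had 3 calls with each muscle fitted alone (Psph, Chac1 and Psat1) and 0 with the adipocyte mean as a covariate. With 1 probe set per gene, LD vs. TN had 8, 7 and 6 calls of 10 genes in BF, FC and BG, fewer by construction. No member call changed sign. Same-numbered samples deviated together in every pair only for BF TN with BG TN (r from 0.17 to 0.38); in LD r ran from -0.22 to 0.55, with 4 of 5 pairs of BF with FC over 0.1. The replicate block stood for 2 models. For housing comparisons, the number within each muscle was a factor. For LD vs. TN, same-numbered LD and TN arrays of a housing group formed a block (consensus correlation -0.02), a pairing that no label gives. Neither model changed a count of member calls. Calls in LD were 5 in BF vs. BG, 3 for FC with BG and 1 for BF with FC. They were 0, 1 and 0 for the same pairs in TN and 0 in the muscles' difference. In LD vs. TN of BF, FC and BG they were 15, 13 and 13. Dim probe sets, such as the third of Atf4, give small differences only a coarse measure, and 2 FC TN arrays give the least precision.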
